A study of Mus musculus with 16 samples.

Results

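The 6 mouse Iroquois homeobox genes, Irx1 to Irx6, were examined in the ChIP-sequencing peak lists of 2 embryonic stem cell cultures. The genes were taken by name, and each was described by the peaks within 2500 bp of its start site and by the peaks lying between the genes of its cluster. They are 6 of the 26180 genes with a curated RefSeq start site on the 21 chromosomes that were read. All cells derived from the R1 mouse embryonic stem cell line and were grown without feeders on gelatin in serum. The study's methods name MycER cells, clonal R1 lines that carry a Myc and oestrogen receptor fusion switched on by 4-hydroxytamoxifen (OHT). The fusion is named MycT58AER for 1 of the clones and MycER for another, and the labels do not say which clone was used. LIF-ESCs were maintained with 100 units per ml of leukaemia inhibitory factor (LIF), and Myc-ESCs with 50 nM OHT and no LIF. The comparison asks which chromatin marks these genes carried when self-renewal was held by LIF or by Myc.

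Iroquois genes encode homeodomain transcription factors of the TALE superclass, whose homeodomain carries an extra loop of amino acids. They pattern the neural tube, the heart, the limb buds and other organs of the embryo. In mammals they sit in a pair of clusters in wide gene-poor intervals. Irx1, Irx2 and Irx4 form IrxA, and Irx3, Irx5 and Irx6 form IrxB. Suz12 is a core subunit of Polycomb repressive complex 2, the enzyme complex that writes H3K27me3, a histone mark of repressed developmental genes. H3K4me3 marks promoters and, together with H3K27me3, defines the bivalent state described at many developmental genes in embryonic stem cells.

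On GRCm38, IrxA spans 1311 kb of chromosome 13, from 71958232 to 73269620. Irx1 lies on the minus strand (71958232 to 71963723), and Irx2 (72628820 to 72634196) and Irx4 (73260497 to 73269620) lie on the plus strand. The gaps between the genes are 665 kb and 626 kb. IrxB spans 882.4 kb of chromosome 8, from 91798511 to 92680956. Irx3 lies on the minus strand (91798511 to 91801654), and Irx5 (92357796 to 92361456) and Irx6 (92674289 to 92680956) on the plus strand, with gaps of 556 kb and 313 kb. The genes themselves are short, from 3144 bp for Irx3 to 9124 bp for Irx4. Each has 1 curated start site.

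The promoters of 3 of the 6 members, Irx2, Irx3 and Irx4, were in the RefSeq promoter table for GRCm38. They are shown because Suz12 was called beside or over all 3 start sites in both cultures and because they are rich in CG dinucleotides, which are in capitals. Each line gives the 250 bases before the start site on the strand of the gene.
Irx2 promoter, chr13:72628570-72628819, plus strand: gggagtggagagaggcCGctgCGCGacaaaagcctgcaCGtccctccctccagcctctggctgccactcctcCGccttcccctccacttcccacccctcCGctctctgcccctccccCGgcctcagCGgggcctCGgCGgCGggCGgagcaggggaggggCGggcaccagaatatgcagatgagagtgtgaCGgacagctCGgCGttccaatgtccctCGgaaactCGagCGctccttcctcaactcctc
Irx4 promoter, chr13:73260247-73260496, plus strand: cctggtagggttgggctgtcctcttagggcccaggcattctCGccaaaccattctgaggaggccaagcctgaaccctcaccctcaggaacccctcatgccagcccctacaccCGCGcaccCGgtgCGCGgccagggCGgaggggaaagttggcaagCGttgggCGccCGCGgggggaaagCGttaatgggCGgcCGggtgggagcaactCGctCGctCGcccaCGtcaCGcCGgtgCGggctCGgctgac
Irx3 promoter, chr8:91801655-91801904, minus strand: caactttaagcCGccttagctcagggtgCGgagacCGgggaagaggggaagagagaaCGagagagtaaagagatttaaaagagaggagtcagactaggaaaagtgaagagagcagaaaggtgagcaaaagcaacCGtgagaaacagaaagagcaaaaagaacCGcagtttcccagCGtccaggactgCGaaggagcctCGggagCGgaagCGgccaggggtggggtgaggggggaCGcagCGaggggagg

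These stretches hold 19, 22 and 13 CG dinucleotides for Irx2, Irx4 and Irx3. The median over all 32851 promoters of the table was 6 CG in the same 250 bases, and 37.8% of them held 10 or more. The E-box CACGTG, the best known binding sequence of Myc with Max, was searched as its 6 letters, which read the same on both strands. It was in none of the 3 stretches and in 6.02% of all promoters of that length. Over the whole 5001 bp windows it occurred once at Irx1, 148 bp before the start site, and once at Irx4, 2382 bp before it. Irx2, Irx3, Irx5 and Irx6 had none, while 49.4% of all genes and 52.8% of genes with Suz12 in both cultures had at least 1 in their window. A match or its absence describes only these letters.

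CG dinucleotides were dense over the windows of 4 members. Irx5 had 75.6 CG per kb, which ranked 19 of 26180 genes, followed by Irx3 with 62.6 (rank 109), Irx2 with 56.2 (rank 248) and Irx1 with 42.8 (rank 1221). Irx4 had 30.6 and Irx6 27.6, close to the median of 31.0 among genes with Suz12 in both cultures and above the 18.2 of all genes.

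The study's 16 libraries, of which 4 were inputs, were represented by 6 lists of peaks, 1 per culture and antibody. A peak has a position and a score, which is its p-value on a negative log10 scale times 10 and was used to rank peaks inside a list and, as an alternative, with a limit of 100 applied alike to every list. H3K4me3 had 32469 peaks in the LIF-ESC list and 30345 in the Myc-ESC list, H3K27me3 had 3120 and 16717, and Suz12 had 11305 and 13907. The median H3K27me3 peak was 157 bp long for LIF-ESCs and 162 bp for Myc-ESCs, against 262 and 269 bp for Suz12 and 2316 and 2623 bp for H3K4me3. No list gives read counts or values of single libraries, so depth is unknown, there is no replicate error, and no difference between the cultures could be tested. All counts below therefore describe these lists. Of 8 markers of pluripotent cells, all 8 had H3K4me3 at the start site in both cultures, 6 without Suz12 in LIF-ESCs and 5 in Myc-ESCs. H3K4me3 without Suz12 was found at 2 and 1 of 4 fibroblast markers, at 0 of 3 markers of extraembryonic endoderm and at 0 of 3 of trophoblast.

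Suz12 lay at the start site of all 6 Irx genes in both LIF-ESCs and Myc-ESCs. Over all genes, 12.1% had a Suz12 peak in the LIF-ESC list and 14.6% in the Myc-ESC list. H3K4me3 was present at 5 of the 6 genes in both cultures, against 62.2% (LIF-ESCs) and 63.3% (Myc-ESCs) of all genes, and it was not listed at Irx1. In LIF-ESCs H3K27me3 was listed at 3 genes (Irx1, Irx3 and Irx4), and Myc-ESCs had it at all 6, against 3.82% and 10.7% of all genes. Irx2, Irx5 and Irx6 thus had H3K27me3 at the start site in the Myc-ESC list alone, a state of 7.65% of all genes. No Irx gene had it in the LIF-ESC list alone, a state of 0.733% of all genes.

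A closer background is the 2822 genes that, like the Irx genes, had Suz12 at the start site in both cultures. Of these, 28.2% had H3K27me3 in the LIF-ESC list, 72.0% in the Myc-ESC list and 46.2% in the Myc-ESC list alone. The 3 Myc-ESC-only Irx genes among 6 are close to that last share. When the Myc-ESC H3K27me3 list was cut to its 3120 best peaks, the length of the LIF-ESC list, 3 Irx genes remained (Irx2, Irx4 and Irx5), and 3.53% of all genes had a peak. At equal length the 2 cultures therefore each had 3 Irx genes, with only Irx4 in both. The count of 6 against 3 cannot be told apart from the different lengths of the lists.

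**Figure D1:**
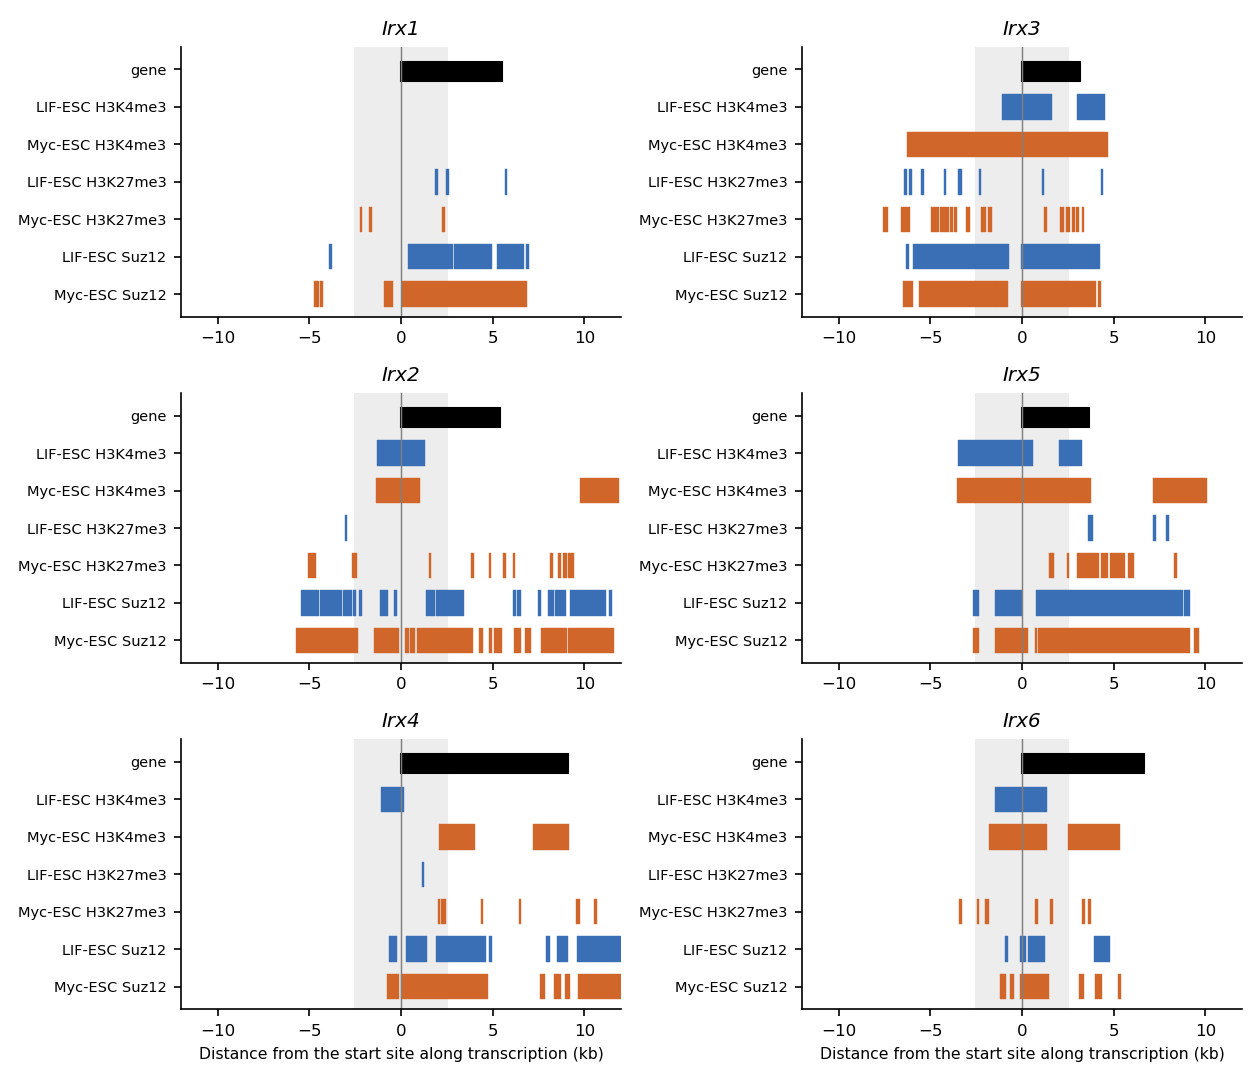
Peaks within 12 kb of each Irx start site, with distance in kb along the direction of transcription on the x axis and 1 row per culture and antibody (blue LIF-ESCs, orange Myc-ESCs). The black bar is the gene and the grey band the 2500 bp window. Irx1 has no H3K4me3 row filled in either culture, and Irx6 has no H3K27me3 in LIF-ESCs.

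Suz12 covered much of each window. At Irx3 it covered 4329 of the 5001 bases in LIF-ESCs and 4289 in Myc-ESCs. Irx5 had 3372 and 3774. Irx1 had 2123 and 2965 bases, Irx2 1990 and 3732, Irx4 2112 and 3127, and Irx6 1387 and 2108. Irx6 was lowest and Irx3 highest in both cultures, and 5 of the 6 genes had more covered bases in Myc-ESCs. The median over the 6 genes was 2118 bases in LIF-ESCs and 3430 in Myc-ESCs, beside 1124 and 1810 for the 2822 genes with Suz12 in both cultures. The number of Suz12 peaks at the 6 windows was 19 in each culture.

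The strongest Suz12 peaks at 5 of the members were near the top of the Myc-ESC list. Irx1, Irx2, Irx3, Irx4 and Irx5 each had a peak with a score of 3100, a value shared by 522 peaks of that list (3.75%). In LIF-ESCs Irx3 and Irx5 had a peak at 3100, shared by 161 peaks (1.42%), and the best peaks of Irx1, Irx4, Irx2 and Irx6 ranked 306, 457, 750 and 1583 of 11305. The best peak at Irx6 in Myc-ESCs ranked 1299 of 13907, so Irx6 came last in each list.

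Joined across gaps of up to 1000 bp, the Suz12 peaks formed domains that differed in length and placement between the genes. At Irx5 the domain was 11.8 kb (LIF-ESCs) and 12.3 kb (Myc-ESCs) long and ran over the whole gene and several kb beyond its end. At Irx3 it was 10.6 and 10.8 kb and also covered the whole gene. At Irx1 it was 6.61 and 7.81 kb and lay over the gene body. The Irx4 domain measured 5.62 and 5.51 kb and reached from the promoter into intron 2 or exon 3. A separate group of Suz12 peaks lay at the end of the gene and past it. Its longest peaks were 2489 bp (LIF-ESCs) and 2393 bp (Myc-ESCs). Irx6 had the shortest domain, 2.16 and 2.66 kb. Around Irx2 the LIF-ESC peaks formed 3 domains of 5.25, 2.05 and 5.39 kb, of which 2 touched the start-site window, and the Myc-ESC peaks formed 1 of 17.4 kb. The outer ends of this stretch were close in both lists, since Suz12 ran from 72623358 to 72640313 in the LIF-ESC list and from 72623076 to 72640425 in the Myc-ESC list.

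The start base itself lay under a Suz12 peak in both cultures at Irx3, Irx5 and Irx6 and in neither culture at Irx1, Irx2 and Irx4. This split follows the clusters, IrxB against IrxA. In LIF-ESCs the nearest Suz12 peak was 378 bp from the Irx1 start, 208 bp from the Irx2 start and 221 bp from the Irx4 start. In Myc-ESCs these distances were 57, 80 and 15 bp, so the split there rested on peak edges close to the start.

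**Figure D2:**
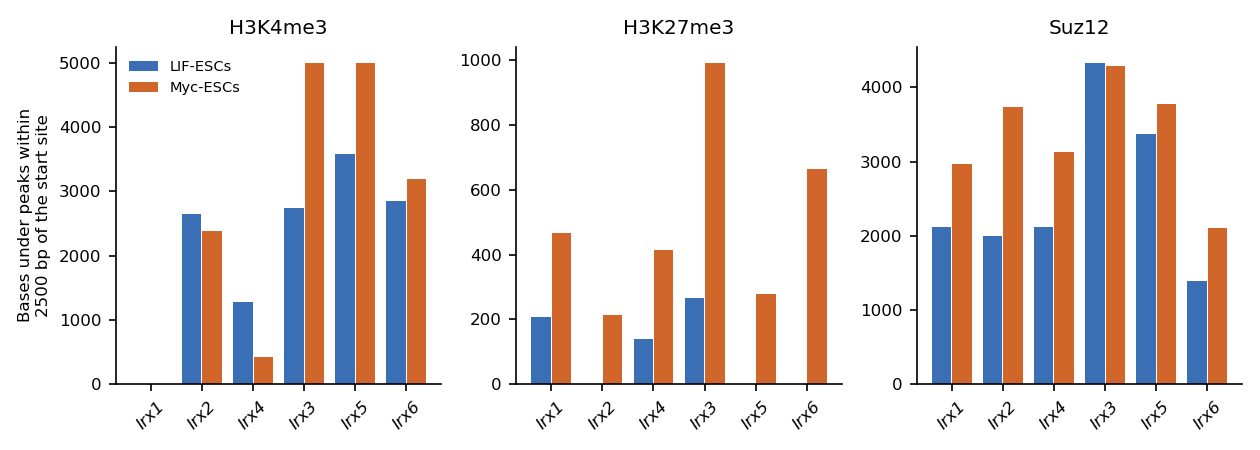
Bases under peaks within 2500 bp of each Irx start site (y axis, bases, a different scale in each panel) for H3K4me3, H3K27me3 and Suz12, with a blue bar for LIF-ESCs and an orange bar for Myc-ESCs. Each bar is 1 peak list, without error. Suz12 ranges from 1387 to 4329 bases, while H3K27me3 does not pass 992. Bases are those under called peaks and do not measure how far a mark extended.

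H3K4me3 at the start sites separated the members more than Suz12 did. Irx1 had none in either culture, and the nearest H3K4me3 peak was 83106 bp away for LIF-ESCs and 71566 bp away for Myc-ESCs. Among the 2822 genes with Suz12 in both cultures, 2.52% had no H3K4me3 peak at the start site in either list. Irx5 had 3582 covered bases in LIF-ESCs and all 5001 in Myc-ESCs, and its best peak ranked 5172 of 32469 and 5384 of 30345, the highest of the family. Irx3 had 2739 bases in LIF-ESCs and 5001 in Myc-ESCs. Its LIF-ESC peaks at the start site and at the 3-prime end, of 2739 and 1542 bp, both lay inside a single Myc-ESC peak of 10956 bp (91796947 to 91807902) that took in the whole gene. At Irx5, LIF-ESC peaks of 4094 and 1239 bp likewise lay inside a Myc-ESC peak of 7299 bp.

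Irx2 and Irx6 had an H3K4me3 peak of similar size over the start site in both cultures, with 2642 and 2377 covered bases at Irx2 and 2852 and 3198 at Irx6. The Irx6 peak ranked 17729 of 32469 in LIF-ESCs and 12291 of 30345 in Myc-ESCs. In Myc-ESCs alone a further H3K4me3 peak of 2822 bp lay in the Irx6 gene body, from 2520 to 5341 bp after the start.

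At Irx4 the H3K4me3 peaks of the cultures were in different places, although both fell in the window. The LIF-ESC peak (73259413 to 73260689, score 73.21) covered the start site. The Myc-ESC peak (73262579 to 73264515, score 90.4) lay in intron 1, from 2082 to 4018 bp after the start. RefSeq predicts an alternative start there, 2653 bp after the curated one. Other predicted starts, at 73259589, 73260073 and 73260296, lay under the LIF-ESC peak, and one at 73264671 lay under neither. Both H3K4me3 peaks were among the weaker ones, at rank 28537 of 32469 and 25408 of 30345. At a window of 1000 bp Irx4 therefore had H3K4me3 in LIF-ESCs alone.

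H3K27me3 peaks at the Irx genes were short and mostly scored low, as did most peaks of the H3K27me3 lists. Lengths and bases here are those of peaks called by MACS at default settings. They do not measure how far the mark itself extended. The 5 peaks at the windows in LIF-ESCs covered 207 bases at Irx1, 139 at Irx4 and 266 at Irx3. The 18 peaks in Myc-ESCs covered 468 bases at Irx1, 213 at Irx2, 413 at Irx4, 992 at Irx3, 279 at Irx5 and 665 at Irx6. Every gene thus had more covered bases in Myc-ESCs, and the median was 440.5 bases against 290 for the 2822 genes with Suz12 in both cultures. Summed over the 6 windows the deposited lists covered 612 and 3030 bases, whereas at equal list length they covered 612 and 615. The 18 Myc-ESC peaks were 113 to 313 bp long and scored 53.54 to 134.26, where the lowest score of that list was 50. Of the LIF-ESC peaks at the windows none reached a score of 100, and in Myc-ESCs Irx2, Irx3, Irx4 and Irx5 had 1 peak each that did. Over the whole H3K27me3 lists, 339 of 3120 LIF-ESC peaks and 3378 of 16717 Myc-ESC peaks reached it.

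No H3K27me3 peak lay on an Irx start site in either culture, which does not show that the mark was absent there. The H3K27me3 lists covered only 0.69 Mb in LIF-ESCs and 3.81 Mb in Myc-ESCs. The share of all genes with an H3K27me3 peak on the start base was not counted. Of the 18 Myc-ESC peaks, 11 were centred after the start site and 7 before it, and 1 was centred within 1000 bp of it. The nearest H3K27me3 peak in Myc-ESCs was 734 bp from the start at Irx6, 1206 bp at Irx3, 1489 bp at Irx5, 1511 bp at Irx2, 1586 bp at Irx1 and 2012 bp at Irx4. In LIF-ESCs it was 1099 bp away at Irx3, 1136 bp at Irx4 and 1857 bp at Irx1, followed by 2919 bp at Irx2 and 3582 bp at Irx5. Irx2 and Irx5 were thus counted as Myc-ESC-only by a window edge, and with windows of 5000 bp both had LIF-ESC peaks as well. Irx6 alone had no LIF-ESC H3K27me3 peak nearby, the nearest being 286848 bp away.

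H3K27me3 peaks that were in the Myc-ESC list and overlapped no LIF-ESC peak are shown for Irx2, Irx4 and Irx3 as the best-scoring one of at most 300 bp at the start site, on the plus strand, with CG in capitals. They are shown to set beside the promoters above.
Irx2, upstream, chr13:72626158-72626407, plus strand: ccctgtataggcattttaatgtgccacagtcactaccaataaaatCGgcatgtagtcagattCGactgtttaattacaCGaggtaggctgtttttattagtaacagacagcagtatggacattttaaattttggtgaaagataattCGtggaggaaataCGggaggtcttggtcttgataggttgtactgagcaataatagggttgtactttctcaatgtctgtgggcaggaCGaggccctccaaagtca
Irx4, intron 1, chr13:73262696-73262979, plus strand: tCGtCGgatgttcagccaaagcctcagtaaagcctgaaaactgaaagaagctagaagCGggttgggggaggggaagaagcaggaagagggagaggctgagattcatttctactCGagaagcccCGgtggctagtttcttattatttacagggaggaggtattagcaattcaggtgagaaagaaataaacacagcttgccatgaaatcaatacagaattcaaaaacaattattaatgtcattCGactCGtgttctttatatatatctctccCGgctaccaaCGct
Irx3, exon 3 and both flanking introns, chr8:91799388-91799568, plus strand: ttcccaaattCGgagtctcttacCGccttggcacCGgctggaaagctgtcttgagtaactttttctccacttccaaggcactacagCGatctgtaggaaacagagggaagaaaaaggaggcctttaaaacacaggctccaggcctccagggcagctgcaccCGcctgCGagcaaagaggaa

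The Irx2 peak (score 111.46) held 6 CG in 250 bases, against 19 in the promoter of the same length. The Irx4 peak (score 134.26) held 9 CG in 284 bases, and the Irx3 peak (score 97.91) 6 in 181 bases. Their G and C content was 41.2%, 43.3% and 53.0%, below the 68.4%, 68.8% and 56.0% of the matching promoters. None of the 3 held CACGTG.

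Over both clusters, windows and gene bodies included, H3K27me3 peaks lay mostly on Suz12. Of 15 LIF-ESC H3K27me3 peaks 13 overlapped a LIF-ESC Suz12 peak by at least 1 bp (86.7%), beside 46.2% of all peaks of that list. Of 57 Myc-ESC H3K27me3 peaks 43 overlapped a Myc-ESC Suz12 peak (75.4%), beside 48.0% of all. Overlap with H3K4me3 of the same culture was 1 of 15 for LIF-ESCs (6.67%), beside 29.2% of all peaks of that list. It was 28 of 57 for Myc-ESCs (49.1%), beside 34.6% of all, and 26 of those 28 were in IrxB, where the broad H3K4me3 peaks of Irx3 and Irx5 lay.

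Most LIF-ESC H3K27me3 peaks of the clusters overlapped a Myc-ESC peak or had one within 1000 bp. Of the 15, 6 overlapped a Myc-ESC peak (40.0%), all in IrxB, beside 51.6% of all LIF-ESC H3K27me3 peaks. A further 8 had one within 1000 bp. The remaining one, a peak of 150 bp with a score of 51.66, was 245866 bp from the nearest Myc-ESC peak. The share of all LIF-ESC H3K27me3 peaks with a Myc-ESC peak within 1000 bp was not counted. The Myc-ESC list was also the longer one, with 16717 peaks against 3120. Suz12 peaks were shared more often, since 37 of 42 LIF-ESC peaks (88.1%) overlapped a Myc-ESC peak, beside 78.2% of all LIF-ESC Suz12 peaks. In the other direction 25 of 39 Myc-ESC Suz12 peaks (64.1%) overlapped a LIF-ESC peak, beside 45.1% of all. For H3K4me3, 12 of 13 LIF-ESC peaks (92.3%) overlapped a Myc-ESC peak, beside 80.9% of all. Only 10 of 20 Myc-ESC H3K4me3 peaks (50.0%) overlapped a LIF-ESC peak, beside 85.8% of all.

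**Figure D3:**
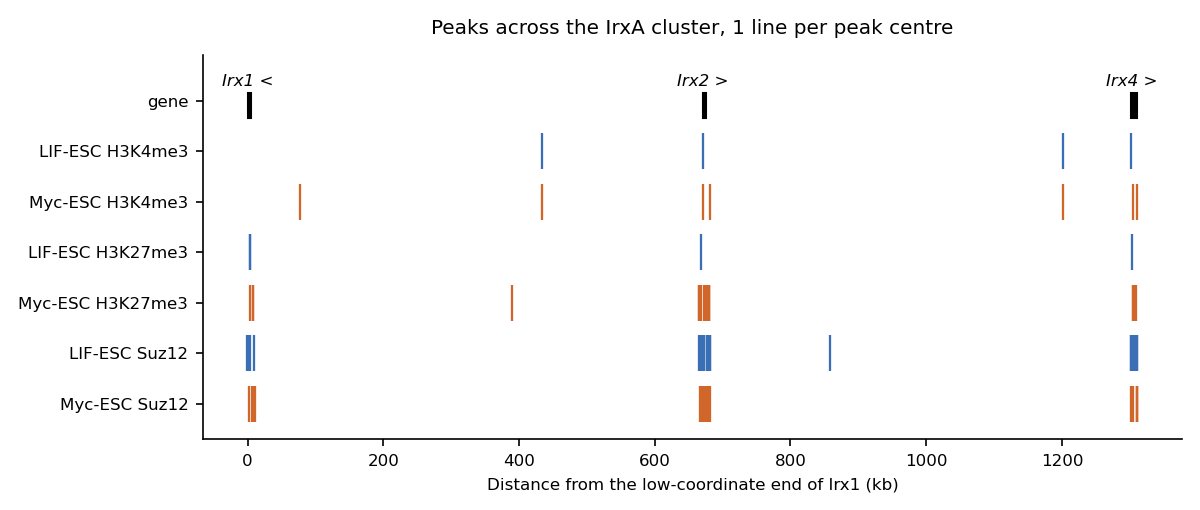
Peak centres across the IrxA cluster, 1 line per peak, with distance in kb from the low-coordinate end of Irx1 on the x axis and 1 row per culture and antibody. Suz12 and H3K27me3 lines gather at Irx1, Irx2 and Irx4, while 1 LIF-ESC Suz12 line and 1 Myc-ESC H3K27me3 line lie away from them.

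The marks of the IrxA cluster gathered at its genes. Across IrxA, Suz12 had 29 LIF-ESC peaks and 22 Myc-ESC peaks, covering 20976 and 27942 bases, and 28 and 22 of them were within 10 kb of a member. Fewer Suz12 peaks thus covered more bases in Myc-ESCs, and the longest was 6800 bp against 2701 bp. H3K27me3 had 4 and 20 peaks, of which 4 and 19 were within 10 kb of a member. H3K4me3 had 4 and 7 peaks, and only 2 and 4 of them were that close.

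Past the outer ends of the clusters, among peaks that touched no member gene or window, only Irx4 had more than short ones. From 493 bp after its end a LIF-ESC Suz12 peak of 2489 bp (score 1663.26) and Myc-ESC peaks of 228 and 2393 bp (best score 2008.69) covered the same stretch, with 2 H3K27me3 peaks in Myc-ESCs alone. Among such separate peaks within 25 kb outside the clusters, none was of H3K4me3 in either list, and none of any mark lay after Irx6. Peaks that touched a member were left out of this count, and some of them ran past an outer end. Past the end of Irx3, H3K4me3 reached 91797112 in LIF-ESCs and 91796947 in Myc-ESCs. Suz12 peaks of Irx1 and Irx3 also ran past the gene's end in both cultures.

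Between the genes of IrxA, outside gene bodies and start-site windows, there were 1280 kb. This space held 13 LIF-ESC and 7 Myc-ESC peaks of Suz12, 1 and 9 H3K27me3 peaks, and 2 and 4 H3K4me3 peaks. Most of the Polycomb peaks were around Irx2, both before its start and after its end. H3K27me3 had 0.0779 peaks per 100 kb here in LIF-ESCs and 0.701 in Myc-ESCs, near the 0.114 and 0.613 over the genome. Suz12 had 1.01 peaks per 100 kb in LIF-ESCs and 0.545 in Myc-ESCs, beside 0.415 and 0.51 over the genome. These Suz12 counts depend on how peaks were divided. A Myc-ESC peak of 3428 bp before Irx2 touched its window and was left out. LIF-ESC peaks of 1016, 1217 and 478 bp in the same stretch were counted. Joined within 500 bp there were 5 LIF-ESC and 3 Myc-ESC peaks. Over the whole of IrxA, Suz12 covered more bases in Myc-ESCs (27942 against 20976). H3K4me3 had 0.156 and 0.312, beside 1.19 and 1.11 over the genome, so the interval was poor in H3K4me3 in both lists.

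After peaks of any list within 1000 bp of each other were joined, 5 places in IrxA lay more than 10 kb from any member. H3K4me3 without Suz12 was in both cultures at 72390845 to 72393819, 235 kb before Irx2 (scores 294.91 and 588.88), and at 73159465 to 73161427, 99.1 kb before Irx4 (138.28 and 60.81). Neither place overlapped a gene of GENCODE vM21. The other 3 places were each in 1 list, with scores from 61.19 to 79.07.

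**Figure D4:**
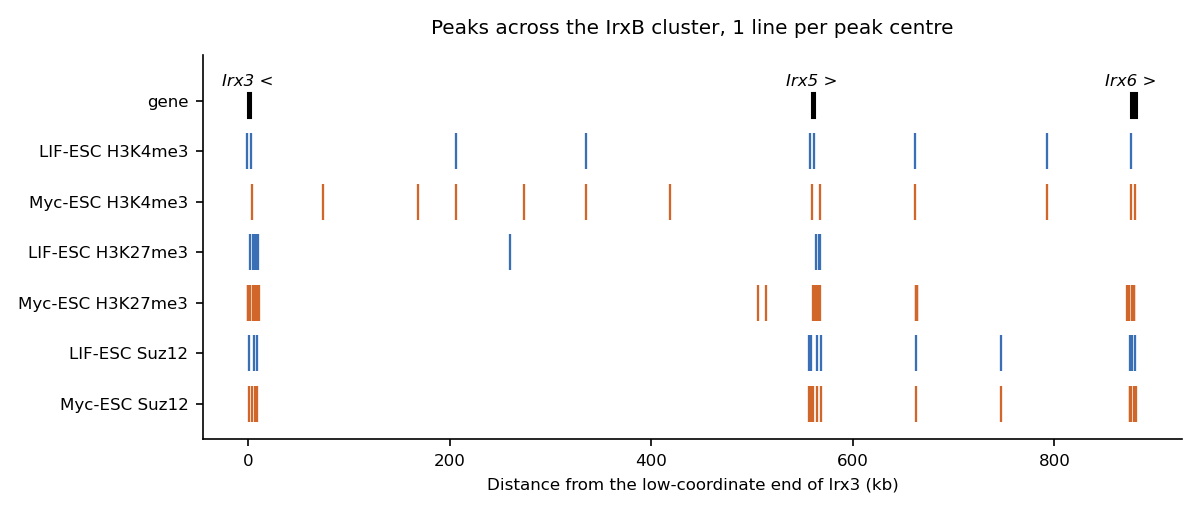
Peak centres across the IrxB cluster, 1 line per peak, with distance in kb from the low-coordinate end of Irx3 on the x axis and 1 row per culture and antibody. Suz12 and H3K27me3 lines gather at Irx3, Irx5 and Irx6, and a place near 661 kb has H3K4me3 and Suz12 in both cultures and H3K27me3 in Myc-ESCs.

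IrxB carried more H3K27me3 than IrxA in each list. It had 11 LIF-ESC peaks and 37 Myc-ESC peaks, covering 1845 and 9207 bases, against 585 and 3466 bases in IrxA. Suz12 had 13 and 17 peaks covering 23641 and 25739 bases, and the longest were 8018 and 8321 bp, both running from Irx5 past its end. H3K4me3 had 9 and 13 peaks covering 20645 and 46561 bases.

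The best H3K27me3 peak of both clusters was in Myc-ESCs at the end of Irx5. It was 670 bp long (92360814 to 92361483, score 534.9), lay in exon 3 and just past the gene's end, and was within the best 0.963% of its list. In LIF-ESCs a peak of 299 bp with a score of 87.25 overlapped it. From this peak to 8443 bp after the Irx5 start, Myc-ESCs had 6 further H3K27me3 peaks, with scores from 73.51 to 259.01. At Irx3 the best H3K27me3 peaks were likewise outside the window, at 91807760 to 91808270 before the start (511 bp, score 253.45 in Myc-ESCs, over LIF-ESC peaks of 57.13 and 73.3) and at 91805645 to 91806122 (478 bp, score 216.94).

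Within 10 kb on each side of the start sites, H3K27me3 at Irx3 covered 1183 bases in LIF-ESCs and 3762 in Myc-ESCs. The values were 618 and 3205 at Irx5, 142 and 2154 at Irx2, 139 and 859 at Irx4, 445 and 468 at Irx1, and 0 and 1131 at Irx6. The values of Irx1 were nearly equal in both lists, and the other 5 genes had the larger value in Myc-ESCs. Suz12 in the same regions ranged from 2285 bases at Irx6 to 10199 at Irx5 in LIF-ESCs and from 2928 at Irx6 to 12327 at Irx2 in Myc-ESCs.

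Between the genes of IrxB, in 861 kb, there were 4 Suz12 peaks in each culture, 8 and 21 H3K27me3 peaks, and 4 and 9 H3K4me3 peaks. H3K27me3 had 0.929 peaks per 100 kb in LIF-ESCs and 2.44 in Myc-ESCs, beside 0.114 and 0.613 over the genome, and 7 of 8 and 15 of 21 of these peaks were within 10 kb of a member. Suz12 had 0.464 in each culture, close to the genome's 0.415 and 0.51. H3K4me3 had 0.464 and 1.04, beside 1.19 and 1.11.

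Farther than 10 kb from any member, IrxB had 12 places with a peak, and a single one carried all 3 marks. It lay at 92459412 to 92462344 between Irx5 and Irx6, 102 kb after the Irx5 start, with no GENCODE gene over it. The nearest annotated start, of the lincRNA Gm45336, was 3423 bp away. H3K4me3 covered 2308 bases there in LIF-ESCs (score 700.51) and 2609 in Myc-ESCs (521.73). Suz12 covered 1284 bases in LIF-ESCs (score 966.75) and 2137 in Myc-ESCs (3100), and the Myc-ESC peak thus tied with the best peaks at the member genes. H3K27me3 had no LIF-ESC peak there and 4 Myc-ESC peaks, which covered 853 bases. The best-scoring of these of at most 300 bp is shown, because this place resembled a member's start site in its marks and lacked an annotated gene.
Between Irx5 and Irx6, chr8:92462100-92462344, plus strand: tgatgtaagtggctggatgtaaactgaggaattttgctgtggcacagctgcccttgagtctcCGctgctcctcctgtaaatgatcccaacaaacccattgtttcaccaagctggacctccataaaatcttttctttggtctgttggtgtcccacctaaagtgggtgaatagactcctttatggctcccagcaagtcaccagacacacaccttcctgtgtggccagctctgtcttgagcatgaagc

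That peak (score 134.34) held 1 CG in 245 bases, in capitals, and lay just past the end of the Suz12 and H3K4me3 peaks. It therefore does not describe the bases under all 3 marks. The best H3K27me3 peak there (321 bp, score 145.68) overlapped both Suz12 and H3K4me3 but was over the length limit. Of the other 11 places, 7 had H3K4me3 alone, 3 of them in both cultures, at 202 kb before Irx3, 222 kb before Irx5 and 81.6 kb before Irx6. A further 3 had a single H3K27me3 peak in 1 list, with scores from 51.66 to 76.11. The last had a short Suz12 peak in both cultures, 128 kb before Irx6 (scores 58.52 and 85.42).

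A pair of long non-coding RNA genes begins near member start sites on the opposite strand and shares part of their windows. They were chosen after their values were seen. Gm20554 starts 256 bp from Irx2, and its window held the same H3K4me3 and H3K27me3 pattern as Irx2. Crnde starts 1676 bp from Irx5. Its window held Suz12 and H3K4me3 in each culture but H3K27me3 in neither, as the Irx5 H3K27me3 peaks all lay on the other side, in and after the gene. Peaks without strand cannot be given to one gene of such a pair.

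The clusters had 18 protein-coding neighbours with a start site within 500 kb. Suz12 was at 1 (LIF-ESCs) and 2 (Myc-ESCs) of them, beside 12.1% and 14.6% of all genes. H3K27me3 was also at 1 and 2, beside 3.82% and 10.7%, and H3K4me3 at 12 in each culture, beside 62.2% and 63.3%. None of the 18 started inside a cluster. Slc6a2, the noradrenaline transporter gene 280 kb from IrxB, had all 3 marks in both cultures, with 2154 and 2704 bases of Suz12. Slc6a3, the dopamine transporter gene, had a Suz12 peak of 192 bases in Myc-ESCs alone, and Lpcat2 an H3K27me3 peak of 153 bases in Myc-ESCs alone. The nearest genes on each side were without H3K27me3, namely Ndufs6, a subunit of respiratory complex I, 58.9 kb from the end of IrxA, Adamts16, a secreted protease, 1120 kb from its other end, Mmp2, a matrix metalloprotease, 146 kb from IrxB, and Fto, an RNA demethylase, 485 kb from its other end. Adamts16 had a Suz12 peak of 219 bases in LIF-ESCs alone.

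A list of 11 other TALE homeobox genes, which include Meis and Pbx cofactors of Hox proteins, differed among themselves. All 11 had H3K4me3 in both cultures. Suz12 was at 5 of them in each culture, and H3K27me3 at 3 for LIF-ESCs and 4 for Myc-ESCs. Meis1, with 4734 and 4908 bases of Suz12, Meis2, Pbx3 and Mkx had both Polycomb marks in Myc-ESCs, and Mkx had H3K27me3 in Myc-ESCs alone (302 bases). Pknox2 had Suz12 in both cultures without H3K27me3. The other 6 had H3K4me3 and neither Polycomb mark.

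**Figure D5:**
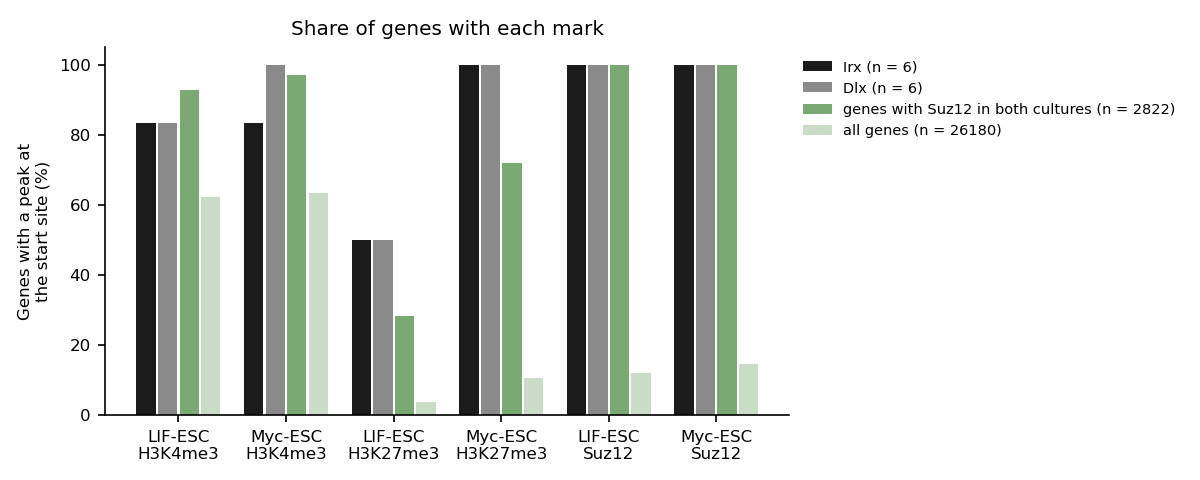
Share of genes with a peak at the start site (y axis, percent) in each of the 6 lists, for the Irx genes, the Dlx genes, the genes with Suz12 in both cultures and all genes. The Irx and Dlx bars differ only for H3K4me3 in Myc-ESCs, 83.3% against 100%.

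Beside Dlx, another homeobox family of 6 genes, the Irx counts were close. The Dlx genes, which pattern the forebrain and the jaws, also had Suz12 at 6 of 6 in both cultures and H3K27me3 at 3 in LIF-ESCs and 6 in Myc-ESCs. In LIF-ESCs H3K4me3 was at 5 genes of each family. In Myc-ESCs it was at all 6 Dlx genes and at 5 Irx genes. Median H3K27me3 coverage in Myc-ESCs was 440.5 bases for Irx and 822.5 for Dlx. These families were not tested against each other.

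By the shares of the window covered in the 6 lists, the genes outside the family most like each member were found by Euclidean distance over the 6 values. They were Tbx5 (0.142) and Hoxd3os1 (0.167) for Irx1, Nfix (0.178) and Cntnap1 (0.208) for Irx4, and Sp9 (0.140) and Gfi1 (0.160) for Irx3. For Irx5 they were Nxph1 (0.090) and Tll1 (0.125), and for Irx6 Fbn1 (0.048) and Cdkn2b (0.087). Gm20554, which shares most of the Irx2 window, came first for Irx2 (0.033), followed by Vax2 (0.142). Tbx5, a T-box factor of heart and forelimb, and Hoxd3os1 were without H3K4me3 in both cultures, as Irx1 was, and Tbx5 had 55.3% and 64.6% of its window under Suz12. The shares were not scaled, so H3K27me3, at most 19.8% of a member's window, counted for little in these distances. Vax2 and Tll1 had no H3K27me3 peak in either list.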

How the data were processed

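ChIP-seq of H3K4me3, H3K27me3 and Suz12 was done in LIF-ESCs and Myc-ESCs. The authors aligned reads to GRCm38 with Bowtie2 (2.2.3 in the submitters' processing notes), kept unique reads and called peaks with MACS 1.4.2 at default settings. The deposited score of each peak is 10 times the negative log10 of its p-value. The sources used here do not say if the libraries behind a list were merged, and depth is unknown.

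Peaks were compared by at least 1 bp of overlap with windows of 2500 bp on each side of the start sites of 45756 curated RefSeq transcripts (GRCm38.p6). The interval code was checked against a plain count on simulated data, with 0 differences in 1000 comparisons. Python 3.11.15, pandas 2.3.3, numpy 2.4.6, pysam 0.24.0 and matplotlib 3.10.9 were used. A peak between genes touches no member gene or window.

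The members and gene lists were chosen with earlier results of these data known. All members were named, and of neighbours and other TALE genes those with a Polycomb mark and the nearest gene on each side of a cluster. The 2 nearest genes by pattern were named per member. A further comparison family and 1 other TALE gene are not reported here. No test was run. Alternatives were a score of 100, lists of equal length, other windows, and other ways to count peaks.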

Additional observations from a re-analysis of the deposited data

How the results depend on the processing

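Of 162 values recomputed under 9 alternatives, 121 stayed within 1.5 times the reported value and 41 did not. This tally is not a measure of robustness. It holds 18 values of the first-start alternative, which could not change, and sums of bases that follow the window size. The count of Irx genes with H3K27me3, 3 in LIF-ESCs against 6 in Myc-ESCs, was 3 against 3 with lists of equal length, 0 against 4 at a score of at least 100, 0 against 1 with windows of 1000 bp and 5 against 6 with windows of 5000 bp. The share of all genes with H3K27me3 was counted only for the deposited lists and those of equal length. At a score of at least 100 the lists still differed in length, with 339 LIF-ESC and 3378 Myc-ESC H3K27me3 peaks.

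At a score of at least 100, H3K27me3 was at 0 Irx genes with 0 bases in LIF-ESCs and covered 928 bases in Myc-ESCs. Between the genes of IrxA this left 2 H3K4me3 peaks in Myc-ESCs, 0 and 1 H3K27me3 peaks in LIF-ESCs and Myc-ESCs, and 7 Suz12 peaks in LIF-ESCs. In IrxB it left 4 H3K4me3 peaks in Myc-ESCs, 0 and 10 H3K27me3 peaks, and 2 Suz12 peaks in each culture. With lists of equal length, Myc-ESC H3K27me3 was at 3 Irx genes with 615 bases, 2 genes had it in LIF-ESCs only, and 1 and 10 peaks lay between the genes of IrxA and IrxB.

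With windows of 1000 bp, H3K27me3 was at 0 genes with 0 bases in LIF-ESCs and at 1 gene with 169 bases in Myc-ESCs, which left 1 Myc-ESC-only gene. Suz12 covered 5954 and 9009 bases and Myc-ESC H3K4me3 8004, and 1 gene had H3K4me3 in LIF-ESCs only. With windows of 5000 bp, H3K27me3 was at 5 genes in LIF-ESCs with 1599 bases, covered 8249 in Myc-ESCs, and left 1 Myc-ESC-only gene. Suz12 covered 31317 and 37011 bases, and Myc-ESC H3K4me3 27000. By peak centres, 1 gene had H3K4me3 in LIF-ESCs only.

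Peaks joined within 500 bp gave 4 Myc-ESC H3K27me3, 5 LIF-ESC Suz12 and 3 Myc-ESC Suz12 peaks between the genes of IrxA, and 10 Myc-ESC H3K27me3 peaks in IrxB. With start-site windows kept, Suz12 had 11 peaks in Myc-ESCs in IrxA, and 7 and 9 in IrxB. Using the first start of each gene could change no value, since each Irx gene has 1 curated start site. Predicted starts, chosen after seeing the data, put LIF-ESC H3K27me3 at 4 Irx genes and left 2 Myc-ESC-only genes. They moved no value by over 1.5 times. No paired analysis was possible because each list is 1 value per culture and antibody, with no test. Depth and replicate error are unknown and limit every value.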
